A study of Triticum aestivum and Triticum urartu and Aegilops speltoides with 12 samples.

Results

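Of the 56855 features measured on these arrays, 42683 carry a bread wheat sequence, and 109 of those (0.255%) were low in only 1 of the 6 plants, Aegilops tauschii. Aegilops tauschii is the wild goat grass that gave bread wheat its D genome. The members were chosen on the deposited values themselves. Values were taken as log2 intensity, values under 7 were set to 7, and the 2 arrays of each plant were averaged. The 6 means were then sorted, and a feature was kept where the widest gap between neighbours was at least 2 (log2) and Ae. tauschii alone lay below it. No more than 200 features were to be kept, and 109 met the rule. The low level in Ae. tauschii is therefore how the features were found, and it is described here without a test.

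Single-colour NimbleGen arrays read Cy3-labelled total RNA from 6 plants, with 2 biological replicates each. The plants were the diploids Triticum urartu (A genome), Aegilops speltoides (labelled as the B genome progenitor), Ae. tauschii (D genome) and rye (Secale cereale), a hexaploid bread wheat (Triticum aestivum) called wheat below, and a hexaploid wheat-rye line with a 2BS.2RL translocation, called the translocation line. All were untreated seedlings harvested with leaves and roots after 10 days of growth, and RNA of 2 seedlings was pooled for each replicate. The sources used here name no cultivar, accession or slide. Each plant thus stands for 1 unnamed line, and slide was not tested as a batch. Ae. speltoides is a relative of the B genome donor rather than a known direct parent of wheat.

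Bread wheat arose from crosses between grasses whose chromosomes carry closely related gene sets, and it still holds the A, B and D genomes side by side. Most of its genes exist as homoeologues, related copies on the different genomes. A probe of a feature may read 1 of these copies or several, and rye, a more distant relative, often holds a matching gene as well. A feature that is bright in every plant except the D genome donor thus has signal in both other progenitors, in rye and in both hexaploids. A probe can read a transcript less well where the sequence differs, so in this design probe match and transcript amount cannot be told apart, nor can fewer cells of a type and less RNA per cell.

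The gene table at hand held none of the IDs (0 of 109 members), and the files do not pair IDs with gene names. The members are named by ID, and their functions are not described. All 109 had 2 probes, as did 56843 of the 56855 features, so the number of probes did not set them apart.

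The members were bright in the other 5 plants, which the floor of 7 and the gap of 2 require. Their median level was 11.73 (log2) in T. urartu, 11.36 in Ae. speltoides, 11.20 in wheat, 11.28 in the translocation line and 11.44 in rye, and 7.86 in Ae. tauschii. The gap ranged from 2.00 to 5.44 with a median of 2.50. It is a lower bound for the 31 members whose mean in Ae. tauschii was under the floor of 7. The same holds for others with only 1 array under it, such as Taestivum_ESTC005032 (3.48, and 3.60 without the floor). Without the floor the median gap was 2.64. With the floor the gap was at least 3 in 36 members and at least 4 in 8. On single arrays, without the floor, both Ae. tauschii arrays lay below all 10 arrays of the other plants in all 109 members, by 1.17 to 8.13. This follows in large part from the choice by means and is no separate support.

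**Figure D1:**
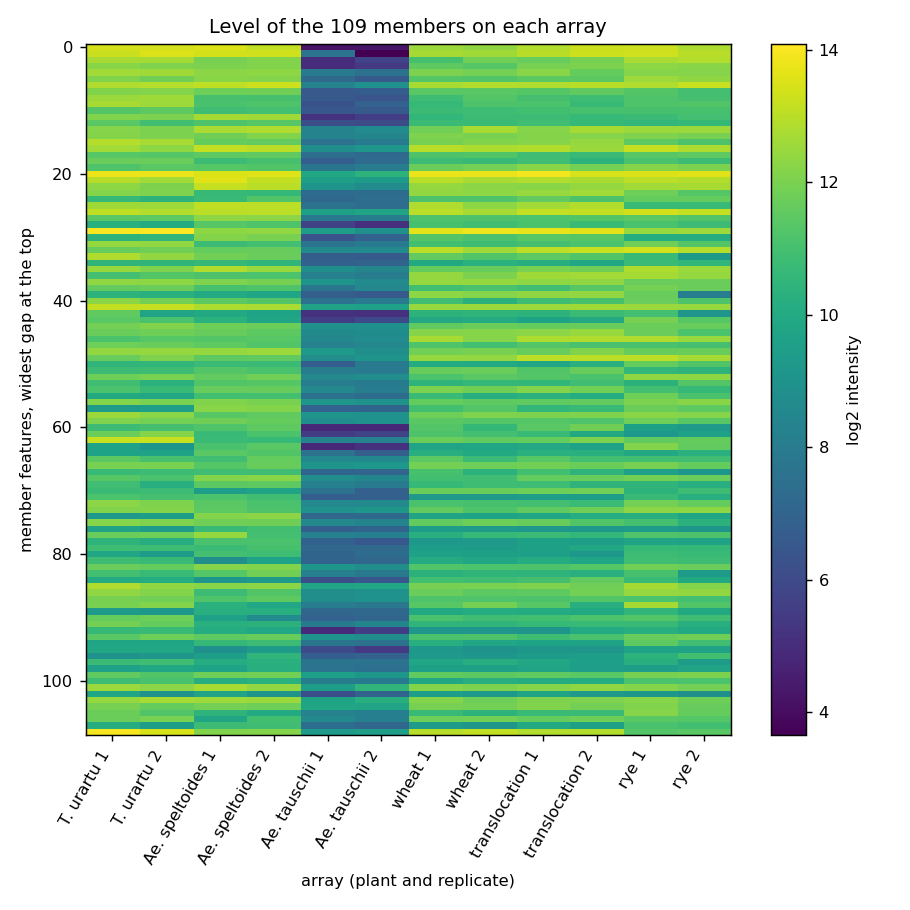
Log2 intensity (colour) of the 109 members (rows, widest gap at the top) on the 12 arrays (columns). The 2 Ae. tauschii columns are darker than the other 10 in every row, and rows also differ in level among the other plants.

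How far the level in Ae. tauschii fell towards background differed among the members. A random control feature, which summarises 6570 probes, served as the background level of each array and read 6.95 and 7.07 (log2) on the Ae. tauschii arrays, close to the floor of the rule. In 28 of 109 members both Ae. tauschii arrays lay at or below it, in 8 members 1 array did, and in 73 members both arrays lay above it. Over all bread wheat features, 12.6% and 13.5% lay at or below the random control on these arrays. By means, 31 members lay under 7 in Ae. tauschii, 61 between 7 and 9, and 17 at 9 or more. On none of the other 10 arrays did any member lie at or below the random control (0 of 109 on each). The rule largely sets this, since it keeps the other 5 means at 9 or more. Only the 28 thus lay at this background on both arrays, and the set is called low rather than missing. Whether the 73 held transcript was not settled. On both Ae. tauschii arrays 5 of 7 sGFP control features also lay above the random control, with means of 7.06 to 11.02. No member exceeded the brightest of them (0 of 109). That limit rests on 1 feature, since the next sGFP feature had a mean of 9.22 and members reached 10.15.

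The members at background and those above it differed in how bright they were elsewhere. Where both Ae. tauschii arrays were at background, the mean over the other 5 plants had a median of 10.86, and the unfloored gap a median of 3.96. Where both were above it, these medians were 11.64 and 2.49. Across the 109 members the level in Ae. tauschii and the mean of the other plants correlated at r = 0.509, over features that share the same arrays. The rule itself bounds the level in Ae. tauschii from above by that of the next plant, and the split was made on that same level. The medians and the correlation thus follow in part from the choice of members and are descriptions only.

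**Figure D2:**
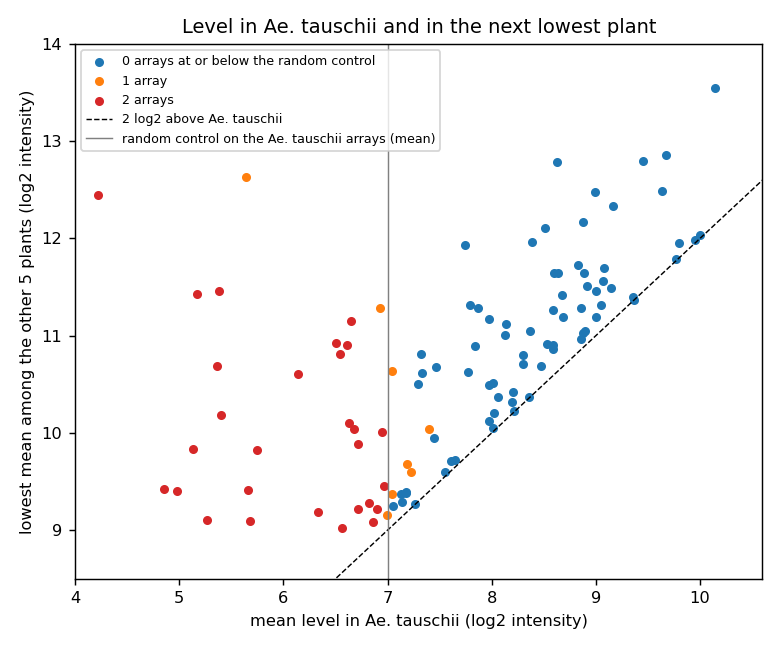
Mean level in Ae. tauschii (x, log2 intensity) against the lowest mean among the other 5 plants (y, log2 intensity), 1 point per member, coloured by how many Ae. tauschii arrays lay at or below the random control (28 with 2, 8 with 1, 73 with 0). The dashed line marks a gap of 2, and points crowd along it to the right of the random control.

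Taestivum_ESTC049553 had the widest gap. It read 4.20 and 4.24 in Ae. tauschii, 13.42 and 13.37 in T. urartu, 13.52 and 13.14 in Ae. speltoides, 12.52 and 12.37 in wheat, 12.89 and 13.23 in the translocation line, and 13.29 and 12.82 in rye. Both Ae. tauschii arrays were far below the random control, and wheat was the lowest of the other plants. Against the random control as a bound, wheat was at least 43.2-fold above Ae. tauschii.

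Taestivum_ESTC033134 came next, with a gap of 5.32. Its Ae. tauschii arrays read 7.63 and 3.66, its T. urartu arrays 13.26 and 13.52, its Ae. speltoides arrays 13.42 and 13.32, its wheat arrays 12.69 and 12.58, its translocation arrays 12.95 and 13.28, and its rye arrays 13.33 and 12.98. The 2 Ae. tauschii arrays disagreed more than in any other member (SD 2.81, n = 2), with 1 above background and 1 far below it, and both were below every other array. Outside Ae. tauschii its profile ran close to that of Taestivum_ESTC049553, with wheat again the lowest. Across all 12 arrays each of these features was the nearest profile of the other, at a root mean square distance of 1.01 (log2).

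The 2 members with the highest level over the other 5 plants lay above the random control in Ae. tauschii. Not all bright members did, as Taestivum_ESTC049553 had a mean of 13.06 over those plants and was at background. Taestivum_ESTC014751 read 9.90 and 10.39 there, 13.80 and 13.77 in T. urartu, 13.51 and 13.58 in Ae. speltoides, 13.77 and 13.76 in wheat, 13.88 and 13.46 in the translocation line, and 13.52 and 13.60 in rye. It was the member with the highest level in Ae. tauschii, and the other 5 plants lay within a narrow band. Taestivum_ESTC032594 read 9.45 and 8.88 in Ae. tauschii and split the others into a brighter group and a dimmer one. It was at 13.97 and 14.08 in T. urartu, 13.66 and 13.83 in wheat and 13.72 and 13.60 in the translocation line, and at 12.30 and 12.38 in Ae. speltoides and 12.47 and 12.57 in rye.

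Features were no rarer just outside the edge of the rule than just inside it. The last member, Taestivum_ESTC011242, had a gap of 2.003 between Ae. tauschii (9.37) and rye (11.37). The first feature outside, Taestivum_ESTC017041, had a gap of 1.98 between Ae. tauschii (7.50) and the translocation line (9.48). Just inside, 54 features had a gap from 2 to 2.5, and just outside 82 had one from 1.5 to 2.

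Replicate arrays of the members lay close together. The median SD of the 2 arrays was 0.13 (log2) in T. urartu, 0.10 in Ae. speltoides, 0.15 in Ae. tauschii, 0.11 in wheat, 0.14 in the translocation line and 0.16 in rye (n = 2 each). The largest SD was 2.81 in Ae. tauschii and 2.49 in rye. Leaving out 1 Ae. tauschii array at a time, the rule found 112 and 115 features, which held 104 and 102 of the 109 members.

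Profiles of the members were compared with those of all other features on the array. Taking profiles within a root mean square distance of 0.5 over the 12 arrays as near-identical, 84 of 109 members (77.1%) had such a neighbour among all features, where 94.4% of all features had one. Of the bread wheat features with a mean of 9 or more in all 6 plants, 99.7% had such a neighbour. A neighbour among features from other species was found for 72 members, a count not taken over all features. Joined by single linkage, the members formed 46 groups, the largest with 47 members, and the shared pattern that the rule asks for fixes part of this. Likeness of profile does not show that features read the same transcript, and counts over members are therefore not counts of independent genes.

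The same rule was applied to features from other sequence sources, which the choice of members did not use. They were read on the same arrays, and 72 members had a near-identical profile among them. The shares below are therefore no separate support for the pattern. Features whose sequence came from Triticum monococcum, an einkorn close to T. urartu, met the rule in 20 of 5724 cases (0.349%). Features from rye sequences met it in 13 of 5731 (0.227%) and features from Ae. speltoides sequences in 6 of 2489 (0.241%), against 0.255% for bread wheat sequences. None of the 228 features from Ae. tauschii and Ae. squarrosa sequences, an older name of the same species, met it, which allows a share of up to 1.32% by counting error alone. So few features cannot show that their share was lower. The 39 features from other species had a median gap of 2.87, and in 9 of them both Ae. tauschii arrays were at background.

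Set beside the other diploids, Ae. tauschii had the fewest bread wheat features low in it alone. By the same rule there were 184 for T. urartu (0.431%), 175 for Ae. speltoides (0.410%), 482 for rye (1.13%) and 109 for Ae. tauschii. In the hexaploids the pattern was close to empty, with 0 bread wheat features for wheat and 2 for the translocation line. The rule asks for 1 low plant, and the hexaploids lay within 0.5 (log2) of each other in 92.2% of all features. A feature low in both could not count for either, so these counts cannot be compared with those of the diploids. In each of the 3 other diploids, sequences of that plant or its close relative had the smallest share among the 4 larger sources. Among features low only in rye 16 of 5731 came from rye sequences (0.279%), among those low only in Ae. speltoides 1 of 2489 came from Ae. speltoides (0.0402%), and among those low only in T. urartu 13 of 5724 came from T. monococcum (0.227%). The last share was nearly matched by that of Ae. speltoides sequences low only in T. urartu, at 6 of 2489 (0.241%). Features are not independent, and these shares were not tested.

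**Figure D3:**
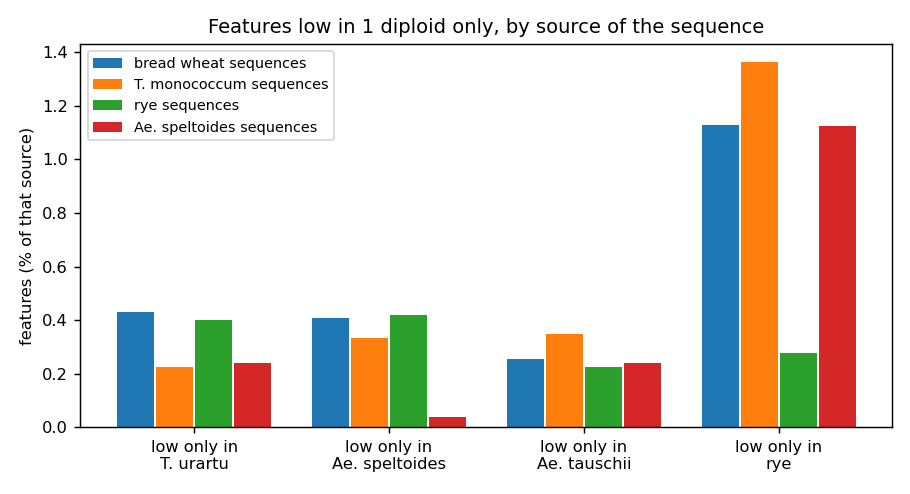
Percent of features (y) that were low in 1 diploid only (x), by the species of the sequence (bar colour). Low only in Ae. tauschii, the 4 sources lay between 0.227% and 0.349%, and low only in rye, rye sequences were at 0.279% against 1.13% for bread wheat sequences.

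The rule places the other 5 plants above the gap but does not use the differences between them. These differences were tested with limma across all 56855 features, and a feature was called where it differed by a log2 of at least 1 with a Benjamini-Hochberg adjusted p below 0.05. A limit remains. Neighbours above the gap must lie closer to each other than the gap, so very wide splits among these plants could not enter the set. Of the 109 members, 54 were called in at least 1 of the 4 comparisons below and 55 in none, where 37.7% of all features were called in at least 1. For scale, shares are also given for the 23018 bread wheat features whose mean was 9 or more in all 6 plants, since members are bright in 5 of them. Of these bright features 23.3% were called in at least 1.

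In the translocation line against wheat, no member was called (0 of 109), where 0.642% of all features were called and 0.152% of the bright bread wheat features. By limma, 9 of 109 members had an unadjusted p under 0.05, where 3327 of all 56855 features did. The smallest limma adjusted p among the members was 0.12. The differences ranged from -0.87 to 0.74 with a median of 0.06, and 101 members (92.7%) lay within 0.5. Over all features 92.2% lay within 0.5 and the median was -0.001. The 2 arrays of the translocation line lay above both wheat arrays in 34 members, where 18.1% of all features did so, and below in 13 members, where 19% did. Smaller shifts than the threshold are thus not settled, and an uncalled member is not shown to be equal in the 2 lines.

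**Figure D4:**
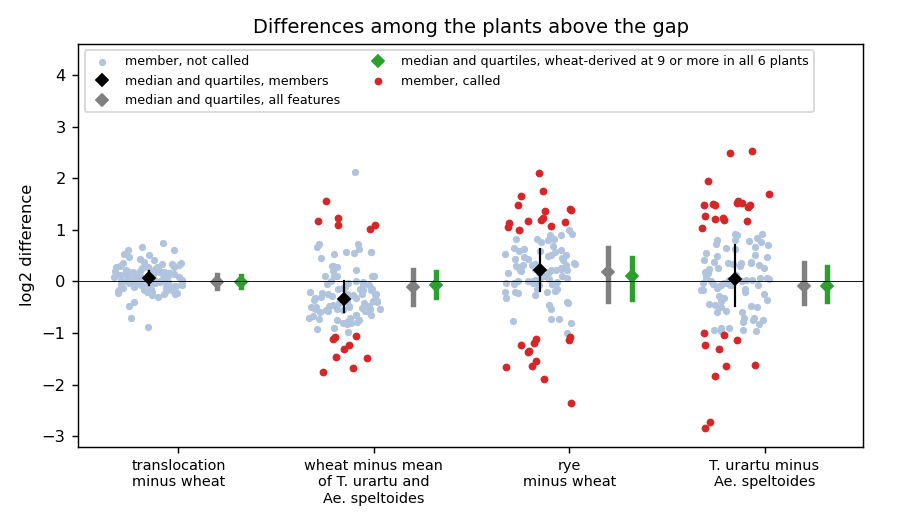
Log2 differences (y) of the 109 members in the 4 comparisons (x), called members in red, with the median (diamond) and quartiles (bar) of the members, of all features and of bright bread wheat features. No member was called in translocation minus wheat, and the members' median in wheat minus the mean of T. urartu and Ae. speltoides was -0.35 against -0.10 for all features.

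Wheat was next set against the mean of T. urartu and Ae. speltoides, the progenitors in which the members were bright. Wheat was called lower in 9 members, where 4.28% of all features and 1.43% of the bright ones were called lower. It was called higher in 6 members, where 8.74% of all features and 3.06% of the bright ones were. The median difference of the members was -0.35 (log2), and it was -0.10 over all features and -0.06 over the bright ones. Wheat lay below the mean of both progenitors in 80 of 109 members (73.4%) and above it in 29, where 59.5% of all features and 57.4% of the bright ones lay below. Scaled to the random control, 27 members (24.8%) lay below, with 15.9% of all features and 7.26% of the bright ones. All wheat arrays were below all 4 progenitor arrays in 40 members, where 24.9% of all features and 20.2% of the bright ones showed this, and above them in 13, where 13% and 11.5% did.

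The sign of this median depended on the scaling. Scaled to the random control, a choice made after seeing the data, the members' median was 0.26 and that of all features 0.50, and 16 members were called higher and 2 lower, where 17.4% and 0.999% of all features were. With cyclic loess the medians were -0.18 and 0.001, with 6 members higher and 5 lower, where 10.4% and 1.99% of all features were. Relative to all features the members' median was -0.24 as deposited and -0.18 with cyclic loess, and a shift of whole arrays, as to the random control, cannot change it. Without wheat replicate 1, 2 members were called higher and 7 lower, where 7.92% and 3.58% of all features were.

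Of the 9 members called lower in wheat, 8 had a wheat mean below both progenitors, and in 5 the translocation line too was at least 1 log2 below the progenitor mean. Taestivum_ESTC008671 read 9.30 and 9.25 in wheat, 11.12 and 11.01 in T. urartu, 11.15 and 10.87 in Ae. speltoides, and 9.46 and 9.45 in the translocation line. Both hexaploids lay below all 4 progenitor arrays, and the difference was -1.76 ± 0.15 (log2, SE), with wheat 3.39-fold lower (limma adjusted p = 2.87e-05), and 2.23-fold scaled to the random control. In Ae. tauschii it was at background on both arrays, at 6.78 and 6.86.

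Taestivum_ESTC034996 read 10.55 and 10.82 in wheat, 12.11 and 12.02 in T. urartu, 12.68 and 12.62 in Ae. speltoides, and 10.80 and 10.63 in the translocation line. Its arrays did not overlap between wheat and the progenitors, and wheat was 3.19-fold lower (limma adjusted p = 3.78e-05), and 2.10-fold scaled to the random control. Rye, at 10.75 and 10.95, was near the hexaploids, and Ae. tauschii was at 5.18 and 5.55.

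All 6 members called higher in wheat had a mean above both progenitors and were at least 1 log2 above the progenitor mean in the translocation line. Taestivum_ESTC018893 read 11.74 and 11.75 in wheat, 11.78 and 11.88 in the translocation line, 10.76 and 10.79 in T. urartu, 9.46 and 9.73 in Ae. speltoides, and 7.59 and 6.86 in Ae. tauschii. The hexaploids were above every diploid array, rye (10.40 and 10.83) included. Wheat exceeded the mean of T. urartu and Ae. speltoides 2.95-fold (limma adjusted p = 0.000528), and 4.48-fold scaled to the random control. Taestivum_ESTC019113 read 10.91 and 10.83 in wheat, 10.06 and 10.12 in T. urartu and 9.12 and 9.25 in Ae. speltoides, a 2.35-fold difference without overlap (limma adjusted p = 0.00266), and 3.57-fold with that scaling. A larger difference of 2.12 in Taestivum_ESTC037133 was not called (limma adjusted p = 0.0537), and its rye arrays, which enter its error estimate, were far apart.

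Against the linear mean of all 3 progenitors, Ae. tauschii included, wheat stood differently. The members' median difference was 0.10 (log2), 69 of 109 lay above that mean, and 73 lay within 0.5 of it. Over all features this median was -0.15, and over the bright bread wheat features -0.10. The counts above and within 0.5 were not taken over those sets. The measure contains the low level by which members were chosen, so it is given as a description. In the 28 members at background in Ae. tauschii the median was 0.02 against the linear mean of the 3 and -0.51 against the log mean of T. urartu and Ae. speltoides. In the 73 members above background these were 0.19 and -0.25.

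As deposited, the bread wheat features low only in T. urartu or only in Ae. speltoides gave values on the same side. Wheat against the mean of the other 2 progenitors had a median of -0.27 for the 184 features low only in T. urartu, where all features had -0.12. For the 175 low only in Ae. speltoides it was -0.17, where all features had -0.10. In the translocation line the medians were -0.24 for features low only in Ae. tauschii, -0.24 for those low only in T. urartu and -0.16 for those low only in Ae. speltoides, where all features had -0.10, -0.12 and -0.10. These sets share arrays, and the differences between them were not tested. The side depends on the scaling. Scaled to the random control, wheat had a median of 0.26 for the features low only in Ae. tauschii. The other sets were not rescaled. The low plant was at background on both arrays in 25.7% of the features low only in Ae. tauschii, 17.4% of those low only in T. urartu and 28.0% of those low only in Ae. speltoides.

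**Figure D5:**
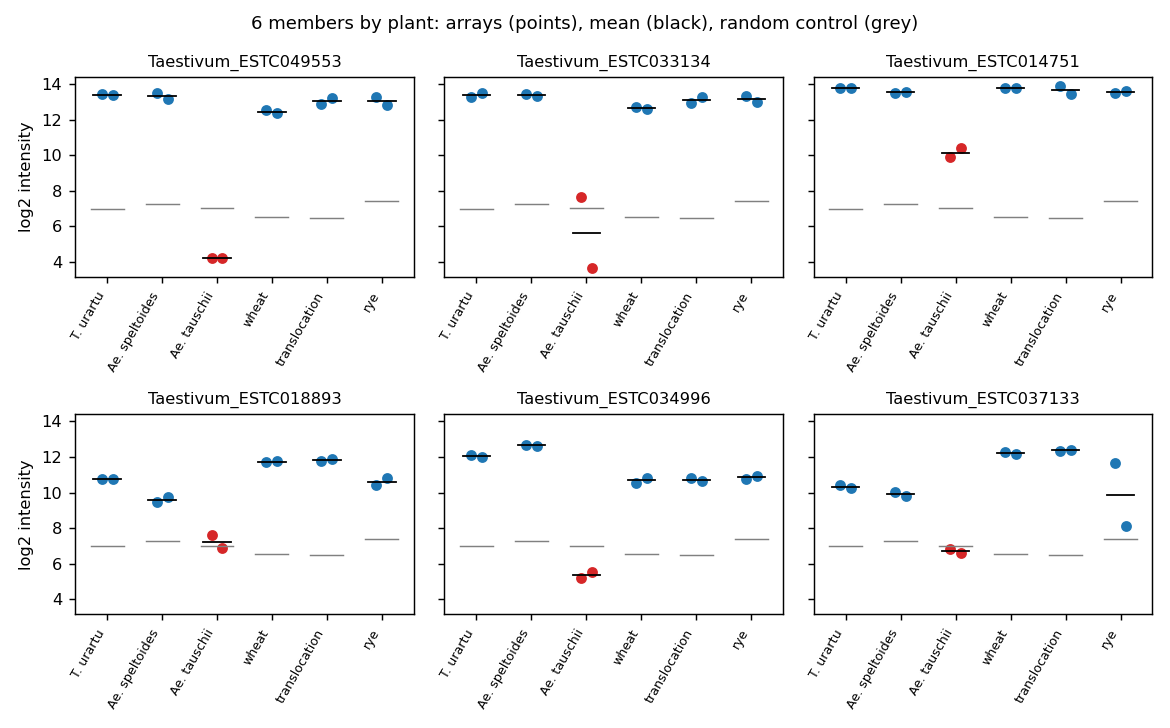
Log2 intensity (y) of 6 members in the 6 plants (x), with 1 point per array, the mean as a black line and the random control of that plant as a grey line. The Ae. tauschii points (red) lie lowest in every panel, from 3.66 in Taestivum_ESTC033134 to 10.39 in Taestivum_ESTC014751, and the rye arrays of Taestivum_ESTC037133 stand apart at 11.64 and 8.12.

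In rye against wheat, 15 members were called higher and 12 lower. Over all features 11.1% were called higher and 13.9% lower, and over the bright bread wheat features 4.03% and 8.57%. The split depended on the scaling: cyclic loess gave 8 members higher and 13 lower, where 5.12% and 16.5% of all features were called. Scaling to the random control gave 1 and 29, where 2.32% and 33.0% were. The members' median was 0.23 and that of all features 0.19, and scaled to the random control these were -0.65 and -0.69. The random control itself was higher on the rye arrays (7.34 and 7.47) than on the wheat arrays (6.56 and 6.50), and its part in these calls was not tested beyond that scaling.

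Taestivum_ESTC015266 read 12.17 and 11.58 in rye and 9.74 and 9.82 in wheat, a 4.27-fold difference without overlap (limma adjusted p = 0.000191), and 2.32-fold scaled to the random control. It was near that level in Ae. speltoides (11.07 and 11.41) and near wheat in T. urartu (9.66 and 9.14), and among the lowest of all members in Ae. tauschii (4.81 and 5.15). Taestivum_ESTC032322 was at 11.10 and 10.93 in rye and 9.38 and 9.16 in wheat, 3.36-fold higher in rye (limma adjusted p = 0.000315). Scaled to the random control its difference was 0.87 and it was no longer called.

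In the other direction, Taestivum_ESTC004331 read 10.69 and 10.67 in rye and 12.84 and 12.32 in wheat, 3.73-fold lower in rye (limma adjusted p = 4.36e-05), and 6.86-fold scaled to the random control. All other plants except Ae. tauschii (7.56 and 7.38) were near wheat. Taestivum_ESTC037133 was at 11.64 and 8.12 in rye and 12.30 and 12.19 in wheat, a mean difference of -2.36 (limma adjusted p = 0.0442), and -3.24 scaled to the random control. Its rye arrays disagreed by more than that, and without rye replicate 2 the difference was -0.60 and not called. Leaving out any 1 of the other arrays except rye replicate 1 also ended this call.

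Between T. urartu and Ae. speltoides 28 members were called, 18 higher in T. urartu and 10 lower. Over all features 9.93% were called higher and 8.25% lower, and over the bright bread wheat features 6.49% and 5.74%. The members' median was 0.05, against -0.10 over all features. The difference was within 0.5 in 50 members (45.9%), where 58.1% of all features and 65.1% of the bright ones lay within 0.5.

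Taestivum_ESTC022760 read 11.60 and 11.79 in T. urartu and 9.61 and 8.71 in Ae. speltoides, 5.80-fold higher in T. urartu (limma adjusted p = 0.000104). Both hexaploids were near T. urartu, with wheat at 11.10 and 10.90, and Ae. tauschii was at 6.95 and 7.04. Taestivum_ESTC007186 read 13.20 and 13.21 in T. urartu and 10.78 and 10.64 in Ae. speltoides, a 5.62-fold difference (limma adjusted p = 3.7e-06). Here wheat, at 11.74 and 11.56, lay between the progenitors.

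Taestivum_ESTC021721 read 9.24 and 9.50 in T. urartu and 12.14 and 12.28 in Ae. speltoides, 7.16-fold lower in T. urartu (limma adjusted p = 3.83e-06). Wheat, at 9.73 and 9.70, was near T. urartu, and Ae. tauschii was at 7.09 and 7.16. Taestivum_ESTC031129 read 9.38 and 9.54 in T. urartu and 12.23 and 12.14 in Ae. speltoides, 6.64-fold lower (limma adjusted p = 2.18e-06), with wheat between them at 10.93 and 11.30. In all 4 of these members the progenitor arrays did not overlap.

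Among the 5 plants above the gap, the members differed by a median range of 1.16 (log2) between the lowest and the highest mean. In 45 members the range was under 1, and in 13 it was 2 or more. T. urartu was the highest plant in 38 members, Ae. speltoides in 30, rye in 26, the translocation line in 13 and wheat in 2. Wheat was the lowest of the 5 in 30 members, rye in 24, Ae. speltoides in 22, T. urartu in 17 and the translocation line in 16. These orders are by means on the deposited scale, and neighbouring plants often lay within the spread of their arrays. They were not counted over all features, so they are not shown to be particular to the members. The place of wheat also moved with the scaling. Wheat lay below the mean of T. urartu and Ae. speltoides in 80 members as deposited and in 27 scaled to the random control. Of all features 59.5% and 15.9% did so.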

How the data were processed

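The authors deposited linear intensity values, 1 per feature and array. Per the submitters' processing notes RMA was used, with version and steps not stated. The linear scale was read from the values (array medians 1588 to 1667), and log2 was taken without an offset. Of the raw probe table only the IDs were read, because its 12 value columns match no label. Precision is limited by the number of arrays. The 8 control features were left out of tests. Group means over all 12 arrays and 56855 features were fitted with limma 3.58.1 in R 4.3.3 (6 residual and 2.97 prior degrees of freedom). The procedure was tested on simulated data.

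The members, comparisons and features named were chosen with earlier results of these data known. Named features are the 2 with the widest gap, those at the edge of the rule, the 2 brightest, and per comparison up to 2 higher and 2 lower called members with the largest difference and no overlap of arrays. Replicate numbers are not said to pair samples, and same-numbered arrays deviated together at correlations of -0.06 to 0.21 over 15 pairs of groups. Scaling, the filter on dim features, the size of difference, the rule's floor and gap, the replicate block and each array left out were tried as alternatives.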

Additional observations from a re-analysis of the deposited data

Results flagged for a closer look

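Outside the features tested above, 5 of 7 sGFP control features lay above the random control on both Ae. tauschii arrays, with means of 7.06 to 11.02 (log2). Their purpose on the array is not stated.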

How the results depend on the processing

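With 2 arrays per plant, calls rest on a spread shared over all plants. The number of features meeting the rule was 80 to 129 with a floor of 8 or 6, 157 without a floor (chosen after seeing the data), 79 when every Ae. tauschii array had to lie 2 below every other array, and 36 with a gap of at least 3, which by construction leaves fewer. Median scaling gave 111, cyclic loess 107 and the random control as scale 89, holding 109, 105 and 82 of the 109 members. With adjusted p alone, 50 members were called in wheat against the mean of T. urartu and Ae. speltoides (12 higher, 38 lower), 52 in rye against wheat (35 higher and, within 1.5 times, 17 lower) and 52 in T. urartu against Ae. speltoides (29 higher, 23 lower). Over all features the shares higher and lower were 14.2% and 17.3%, 27.8% and 20.1%, and 15.9% and 16.8%. At a log2 of at least 2 the members called were 0 (0 and 0), 2 (1 and 1) and 4 (2 and 2). There the shares of all features were 4.04% and 0.549%, 2.18% and 7.25%, and 4.51% and 3.13%. Cyclic loess gave 5 members lower in wheat than in the progenitors and 8 higher in rye. Scaling to the random control gave 16 higher and 2 lower in wheat and 1 higher and 29 lower in rye. It also gave 6 lower between T. urartu and Ae. speltoides, where 5.84% of all features were. The cause was not tested. Of 92 counts under alternatives other than leaving out an array, 67 stayed within 1.5 times, among them those without the dimmest 25% of features and with median scaling. The 67 include the translocation line against wheat, at 0 under every such alternative, and the 92 count totals beside their higher and lower parts. They are thus not independent checks. Leaving out each array gave 103 to 115 features meeting the rule. The members' median in wheat against the progenitors then ranged from -0.40 to -0.33, where all features had -0.11 to -0.10. In rye against wheat it ranged from 0.15 to 0.31, where all features had 0.17 to 0.19. Between T. urartu and Ae. speltoides it was 0.05 to 0.10, where all features had -0.10 to -0.08. For the translocation line against wheat it was 0.04 to 0.09, where all features had -0.006 to 0.003. The rye difference of Taestivum_ESTC037133 stayed called only when the array left out was rye replicate 1. With the replicate block the calls were 7 higher and 9 lower in wheat against the progenitors, 15 and 12 in rye against wheat, 18 and 10 between the progenitors and 0 between the hexaploids. Over all features the shares were 8.76% and 4.32%, 11.1% and 14.0%, 10.0% and 8.32%, and 0.332% and 0.311%.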
